A study of Arabidopsis thaliana with 12 samples.

Results

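Aquaporins are channel proteins that let water and small uncharged solutes cross membranes. The 35 Arabidopsis genes of the family were taken by gene identifier from a deposited table of 32833 genes: 13 plasma membrane intrinsic proteins (PIPs), 10 tonoplast intrinsic proteins (TIPs), 9 nodulin 26-like intrinsic proteins (NIPs) and 3 small basic intrinsic proteins (SIPs). Of the 35, 30 passed the filter on low counts and were tested, namely all 13 PIPs, 8 of 10 TIPs, 6 of 9 NIPs and all 3 SIPs. Gene names follow the hyphenated style of the deposited table, in which PIP2-1 is the second-group PIP number 1. The table lists PIP1-2, PIP1-4 and PIP2-2 as PIP1B, PIP1.4 and PIP2B.

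The series concerns phosphate homeostasis in Arabidopsis thaliana and holds 12 RNA-seq libraries from whole 8-day-old seedlings, 3 for each of KC in P+, KC in P-, phod2 in P+ and phod2 in P-. The labels do not spell out KC, name the gene altered in phod2, or define P+ and P-, which the protocol seems to call HP and LP. In the table the KC P+ libraries carry the heading WT, so every comparison that uses KC P+ would include a difference between WT and KC if these were different lines. The labels call the samples of a genotype biological replicates but do not say whether each came from its own plate or sowing, so the p-values measure the spread between these libraries. Library totals ran from 16821084 to 23327960 counts, and aquaporin genes took 0.605 to 0.831% of them. Library phod2 P- replicate 2 stood apart from its group: 26 of the 30 tested aquaporins had the highest of their phod2 P- levels in it, and its deviations from the group mean over all genes ran against exonic length (Spearman rho -0.694, against 0.573 and 0.578 in the other 2 libraries). Deviations from a shared mean cancel within the group. A trend in this library by itself gives opposite trends in the other 2, so their values are not separate observations.

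PIPs sit in the plasma membrane and carry much of the water flow into and between cells, and PIP1 proteins are known, first from maize, to need PIP2 partners to reach that membrane. TIPs sit in the vacuolar membrane, where they buffer cell water and also pass solutes such as ammonia and urea. NIPs include the boric acid channels NIP5-1 and NIP6-1 and several channels for metalloids such as arsenite, and SIPs sit in the endoplasmic reticulum. In roots, aquaporin activity sets much of the hydraulic conductivity, which in several species is known to fall when mineral nutrients are withheld.

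The pore of an aquaporin is lined by a pair of short loops that each carry an Asn-Pro-Ala box, written NPA, and the subfamilies differ in these boxes. Both boxes read NPA in 13 of 13 PIPs and 10 of 10 TIPs, in 4 of 9 NIPs and in 0 of 3 SIPs. The lines below give 33 coding bases, 5′ to 3′, around the first box of members described later, from the RefSeq TAIR10.1 genome, with the 3 box codons in capitals. The table's gene coordinates equalled those of TAIR10.1 for all 35 genes.
PIP2-1, box NPA: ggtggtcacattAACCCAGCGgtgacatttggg
PIP2-2, box NPA: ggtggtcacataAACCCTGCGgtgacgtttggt
PIP2-3, box NPA: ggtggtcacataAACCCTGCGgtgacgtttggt
TIP1-2, box NPA: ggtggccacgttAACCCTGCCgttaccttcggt
NIP5-1, box NPS: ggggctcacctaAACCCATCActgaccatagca
NIP6-1, box NPA: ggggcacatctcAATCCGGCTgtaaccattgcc
SIP1-2, box NPC: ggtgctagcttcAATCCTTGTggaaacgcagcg
The neighbours PIP2-2 and PIP2-3 carry the same 33 bases, and the coding sequences of that pair were the most alike in the family, with 94.8% identity over ungapped aligned bases. Median identity between pairs of coding sequences was 74.3% within the PIPs, 65.9% within the TIPs, 65.4% within the NIPs and 63.9% within the SIPs. The second box of the boron channels reads NPV in both, written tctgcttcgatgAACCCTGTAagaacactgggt in NIP6-1 and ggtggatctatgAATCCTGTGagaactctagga in NIP5-1.

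In P+, TIPs made up slightly more of the family's transcript than PIPs, and in P- the order was the reverse, with PIPs above TIPs. Levels are FPKM, counts scaled by exonic length and by library size, here with TMM scaling of the library sizes, and may be compared between genes. In KC the summed PIP level was 2723 ± 26.5 in P+ and 2993 ± 58.2 in P- (mean ± SD, n = 3 libraries here and below), which was 47.0% and 66.6% of the family. The summed TIP level in KC was 2953 ± 19.8 in P+ and 1385 ± 27.8 in P-, or 51.0% and 30.8% of the family. In phod2 the PIP sum was 2095 ± 13.5 in P+ and 2999 ± 403 in P-, and the wide spread in P- came with replicate 2, at 3464. The TIP sum in phod2 was 2489 ± 14.7 in P+ and 1277 ± 165 in P-. NIPs and SIPs were minor, with sums of 27.4 to 53.2 and 66.4 to 76.7 as group means. These sums are descriptions and were not tested.

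**Figure D1:**
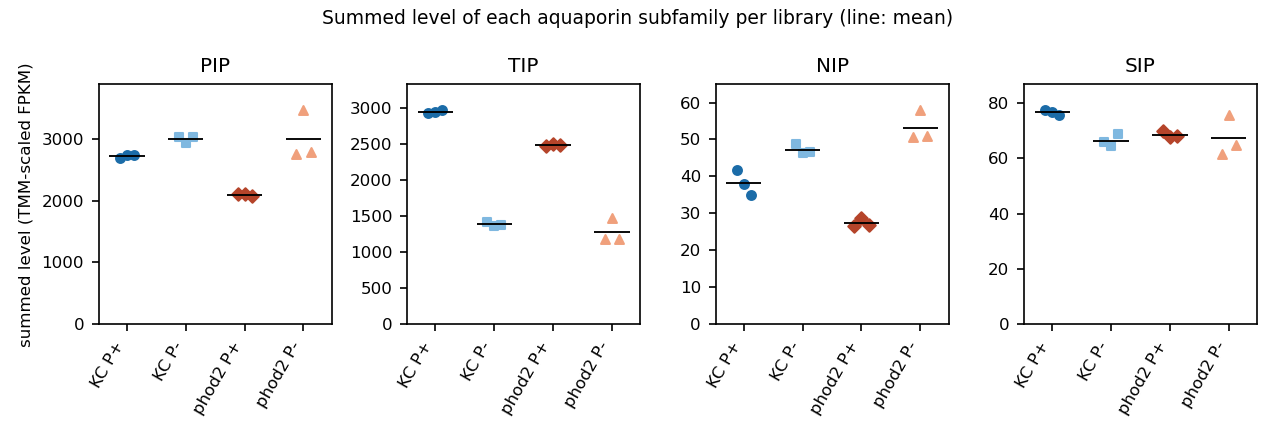
Summed level (TMM-scaled FPKM) of the PIP, TIP, NIP and SIP genes in each of the 12 libraries by group, with points for libraries and lines for group means. The mean TIP sum is 2953 in P+ and 1385 in P- in KC, and 2489 and 1277 in phod2, while the mean PIP sum is higher in P- in both.

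The leading gene differed with the condition. TIP1-2, a tonoplast water channel, was first in both P+ groups, with 23.8% of the family's summed level in KC and 27.7% in phod2, followed by TIP2-1 with 15.7% and 18.1% and PIP2-7 with 12.1% and 12.1%. PIP2-1, a main plasma membrane water channel of roots and rosettes, was first in both P- groups, with 20.3% in KC and 22.0% in phod2, followed by PIP1-2 with 14.0% and 16.0% and TIP1-2 with 13.9% and 13.3%. Over all 12 libraries the 5 highest genes were TIP1-2, PIP2-1, TIP2-1, PIP1-2 and PIP2-7, at mean levels of 970.8, 613, 564, 515 and 474.

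**Figure D2:**
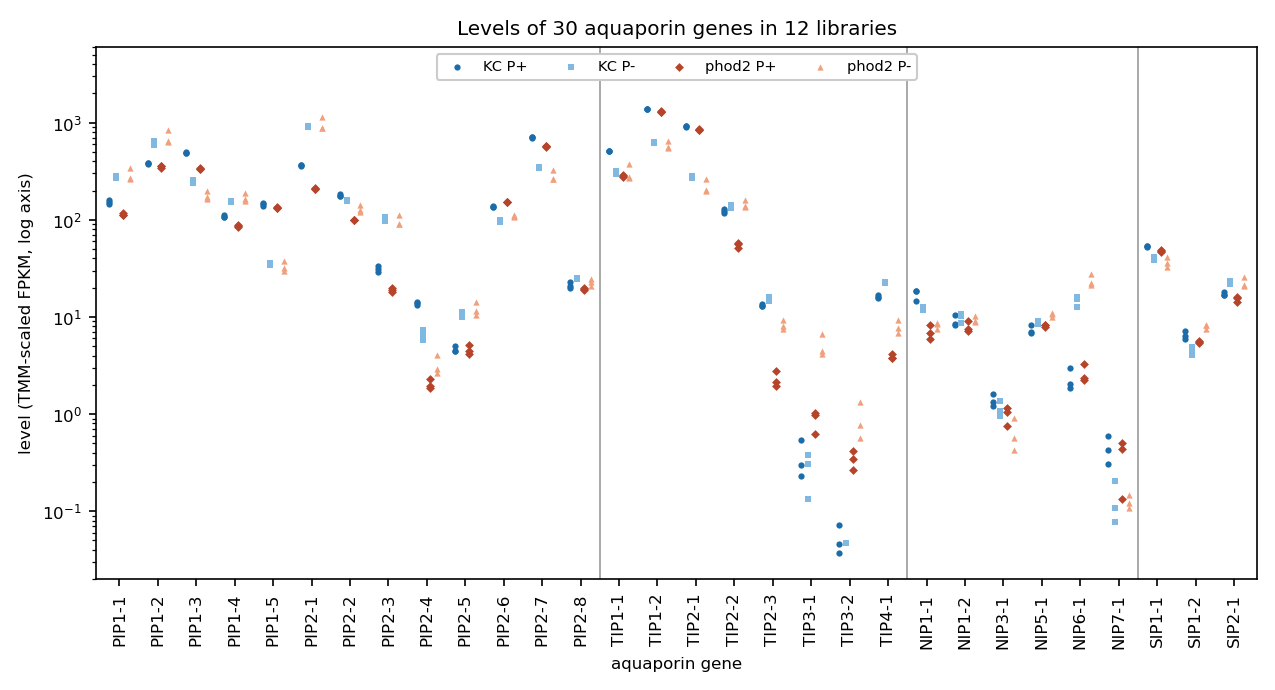
Level of each tested aquaporin gene in each library of the 4 groups on a log10 scale, grouped by subfamily. Levels of 0 cannot be drawn on this scale. TIP genes span the range from under 1 to 1385 and PIP genes from 1.86 to 1142, while NIP genes reach at most 27.6.

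The comparison of P- with P+ asks how aquaporin transcripts differ with the condition. A gene was called when the adjusted p of edgeR's quasi-likelihood test was at most 0.05 and the change at least 2-fold. In KC, 4 aquaporins were called higher and 6 lower in P-, where 10.9% and 9.60% of all 20891 tested genes were (20.5% in all). In phod2, 10 were called higher and 5 lower, where 14.1% and 10.3% of all tested genes were (24.4% in all). NIP7-1, TIP3-1 and TIP3-2 are counted here although they passed the count filter only through the groups where they are high. Without these 3 the counts were 4 higher and 5 lower in KC, and 8 higher and 4 lower in phod2, of 27 genes. The median log2 change of the 30 tested members was -0.237 in KC and 0.46 in phod2, or 0.118 and 0.38 without the same 3, so that its sign in KC rests on them, beside 0.00805 and 0.00859 over all tested genes. Without the fold limit, 24 of 30 members passed in KC (11 higher, 13 lower) and 26 of 30 in phod2 (18 higher, 8 lower), where 64.5% (32.2% higher, 32.3% lower) and 68.0% (34.4% higher, 33.6% lower) of all tested genes passed. Between the genotypes 9 calls were shared, 4 higher and 5 lower, which is 9 of the 10 KC calls and 9 of the 15 phod2 calls, and 0 were opposite. NIP7-1 is among the 5 shared lower calls, and TIP3-1 and TIP3-2 are among the calls of phod2 only. The limit given above for these 3 genes applies to the shared counts too. Over all tested genes 3447 calls were shared, which is 80.3% of the KC calls and 67.6% of the phod2 calls, and 17 were opposite.

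**Figure D3:**
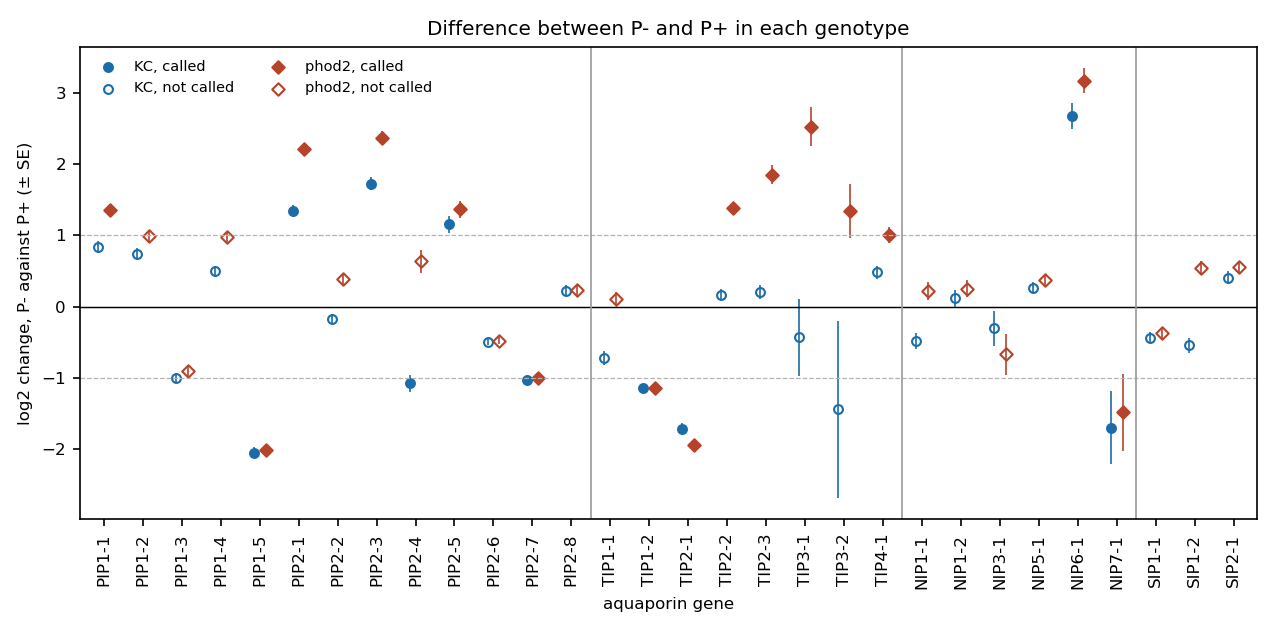
Log2 change of P- against P+ for each tested aquaporin in KC and phod2, with bars of 1 SE from edgeR and lines at a 2-fold change. PIP1-5, TIP2-1 and TIP1-2 lie to the lower side in both genotypes, and NIP6-1, PIP2-3 and PIP2-1 to the higher side.

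Among the plasma membrane channels, PIP2-1, PIP2-3 and PIP2-5 were higher in P- in both genotypes. PIP2-1 (AT3G53420, chr3:19803473-19805730, minus strand) had levels of 355, 364 and 362 in KC P+ and 913, 905 and 923 in KC P-. In phod2 its levels were 209, 210.2 and 209 in P+ and 881, 1142 and 882 in P-. The P- libraries of either genotype all lay above all P+ libraries, with a log2 change of 1.34 ± 0.08 (SE, adjusted p = 3.72e-09) in KC and 2.21 ± 0.08 (adjusted p = 1.72e-11) in phod2. PIP2-5 (AT3G54820, chr3:20301759-20304309, plus strand), a water channel whose transcript is known to rise in cold and drought, was much less abundant. Its levels were 4.47, 4.42 and 5.02 in KC P+, 10.05, 9.87 and 11.1 in KC P-, 4.45, 4.19 and 5.18 in phod2 P+ and 10.4, 14.1 and 11.4 in phod2 P-. Its groups did not overlap between the conditions, with log2 changes of 1.16 ± 0.12 (adjusted p = 1.17e-06) in KC and 1.37 ± 0.12 (adjusted p = 1.58e-07) in phod2.

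PIP2-2 (AT2G37170) and PIP2-3 (AT2G37180), also known as RD28, a transcript induced by desiccation, lie next to each other on chromosome 2 on opposite strands (15613368 to 15615022, minus strand, and 15617635 to 15619155, plus strand). Reads could be split between them, since 19.6% and 21.7% of their 50-base exonic windows occurred in the other gene and the counting rules are not given in the sources used here. PIP2-3 had levels of 29.0, 33.4 and 31.1 in KC P+ and 105, 97.7 and 106 in KC P-, and of 17.8, 20.0 and 18.7 in phod2 P+ and 89.7, 112 and 91.1 in phod2 P-. Every P- library lay above every P+ library, with a log2 change of 1.72 ± 0.09 (adjusted p = 7.27e-10) in KC and 2.37 ± 0.09 (adjusted p = 2.67e-11) in phod2. PIP2-2, a water channel known from roots, ran from 156 to 159 in KC P- against 175 to 182 in KC P+, and from 121 to 143 in phod2 P- against 98.7 to 100.1 in phod2 P+. Its log2 change was -0.17 ± 0.06 (adjusted p = 0.0281) in KC and 0.38 ± 0.06 (adjusted p = 0.000105) in phod2, both under the fold limit. PIP2-3 gave 13.0 to 14.3% of the counts of the pair in KC P+ and 36.2 to 37.7% in KC P-, and 13.9 to 15.4% and 39.5 to 41.4% in phod2. The summed level of the pair ran from 204 to 216 in KC P+, 253 to 265 in KC P-, 117 to 120 in phod2 P+ and 212 to 255 in phod2 P-.

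The PIP1 genes moved in different directions. PIP1-1 (AT3G61430, chr3:22733243-22735394, plus strand) had levels of 147, 159 and 154 in KC P+, 279.7, 267 and 276 in KC P-, 113, 117 and 111 in phod2 P+ and 263, 337 and 268 in phod2 P-. It lay higher in all P- libraries, with a log2 change of 0.84 ± 0.08 (adjusted p = 5.93e-07) in KC, under the fold limit, and 1.35 ± 0.08 (adjusted p = 3.42e-09) in phod2, where it was called. PIP1-2, known for water and CO2 transport, had levels of 371, 381 and 381 in KC P+ and 649, 593 and 645 in KC P-, and of 357, 356 and 344 in phod2 P+ and 634, 829.5 and 643 in phod2 P-. Its change missed the fold limit in both genotypes, at 0.74 ± 0.09 in KC and 0.99 ± 0.09 in phod2. PIP1-4 was similar, at 0.50 ± 0.07 and 0.98 ± 0.07.

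PIP1-5, PIP2-7 and, just short of the fold limit, PIP1-3 were lower in P-. PIP1-5 (AT4G23400, chr4:12220641-12222468, plus strand) had levels of 139, 145 and 150.5 in KC P+ and 35, 33.8 and 35.8 in KC P-, and of 137, 132 and 131 in phod2 P+ and 29.9, 37.3 and 32.1 in phod2 P-. It fell in both genotypes, by 2.05 ± 0.08 on the log2 scale in KC (adjusted p = 1.7e-11) and by 2.01 ± 0.08 in phod2 (adjusted p = 1.77e-11). PIP2-7 (AT4G35100, chr4:16708361-16710407, plus strand), an abundant water channel, had levels of 704, 696 and 705 in KC P+ and 339, 349 and 339 in KC P-, and of 559, 574 and 572 in phod2 P+ and 260.0, 327 and 265 in phod2 P-. The groups did not overlap, with log2 changes of -1.04 ± 0.07 (adjusted p = 1.73e-08) in KC and -1.0 ± 0.07 (adjusted p = 2.08e-08) in phod2. The phod2 change stood at the fold limit and lost its call, at -0.94 to -1.0, with other size factors, in DESeq2 and without phod2 P+ replicate 2 or 3 or phod2 P- replicate 1 or 3. PIP1-3 ran from 489 to 494 in KC P+ and from 237 to 255 in KC P-, a log2 change of -1.0 ± 0.06 (adjusted p = 6.84e-09), and in phod2 its change was -0.91 ± 0.06.

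TIP1-2 and TIP2-1, the most abundant tonoplast channels, were lower in P- in both genotypes. TIP1-2 (AT3G26520, chr3:9722443-9723904, minus strand) had levels of 1374, 1376 and 1385 in KC P+ and 634, 621 and 611 in KC P-, and of 1285, 1291 and 1317 in phod2 P+ and 555, 648 and 552 in phod2 P-. Its log2 change was -1.15 ± 0.06 in both genotypes (adjusted p = 6.94e-10 in KC and 5.73e-10 in phod2). TIP2-1 (AT3G16240, chr3:5505360-5507050, plus strand), the delta-TIP known to pass water and ammonia, had levels of 900.3, 913 and 920.1 in KC P+, 283, 277 and 269 in KC P-, 843, 868 and 830.4 in phod2 P+ and 203, 261 and 198 in phod2 P-. It lay lower in all P- libraries, with a log2 change of -1.72 ± 0.08 (adjusted p = 3.72e-10) in KC and -1.94 ± 0.09 (adjusted p = 8.99e-11) in phod2. TIP1-1, the gamma-TIP, was lower in KC, under the fold limit: its levels ran from 508 to 512 in KC P+ and from 299 to 319.7 in KC P-, a log2 change of -0.72 ± 0.10 (adjusted p = 1.48e-05). In phod2 it ran from 276 to 290.4 in P+ and from 270.0 to 372 in P-, with overlapping groups and a log2 change of 0.11 ± 0.10 (adjusted p = 0.318).

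Among the NIPs the boron channel NIP6-1, known to move boric acid towards young leaves, showed the widest change of any member between conditions. NIP6-1 (AT1G80760, chr1:30350539-30352208, minus strand) had levels of 2.04, 1.85 and 2.95 in KC P+ and 16.1, 12.7 and 15.2 in KC P-, and of 2.23, 3.30 and 2.37 in phod2 P+ and 21.4, 27.6 and 22.4 in phod2 P-. The P- libraries lay far above the P+ libraries, with a log2 change of 2.67 ± 0.18 (6.38-fold, adjusted p = 1.09e-08) in KC and 3.17 ± 0.17 (9.01-fold, adjusted p = 8.31e-10) in phod2. NIP5-1, the boric acid channel of root uptake, ran from 6.89 to 8.19 in KC P+ and from 8.55 to 9.0 in KC P-, a log2 change of 0.27 ± 0.08. In phod2 it ran from 7.97 to 8.34 in P+ and from 9.99 to 11 in P-, a change of 0.38 ± 0.08, also under the fold limit. NIP7-1 (AT3G06100, chr3:1841168-1843196, minus strand), a boric acid channel known from developing anthers, was barely detected, with 44, 11, 35 and 11 counts over the 3 libraries of KC P+, KC P-, phod2 P+ and phod2 P-. Its levels were 0.303, 0.424 and 0.594 in KC P+, 0.206, 0.108 and 0.0777 in KC P-, 0.135, 0.505 and 0.435 in phod2 P+ and 0.147, 0.121 and 0.109 in phod2 P-. It passed the filter on 4 libraries at the filter's level, 2 of KC P+ and 2 of phod2 P+ with 0 from P-, so a lower value in P- was built into its being tested, and its values are a description. The phod2 groups overlapped and the KC groups did not. The fitted log2 changes were -1.70 ± 0.52 (adjusted p = 0.0106) and -1.49 ± 0.54 (adjusted p = 0.0251). The nominal calls were lost without KC P+ replicate 3 (adjusted p = 0.053) and without phod2 P+ replicate 2 or 3 or phod2 P- replicate 3 (adjusted p = 0.0651 to 0.104).

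The SIPs gave 0 calls between conditions in either genotype with edgeR and with DESeq2. In edgeR all 3 passed in both genotypes at an unadjusted p under 0.05 and also at the adjusted p, and missed only the fold limit. At any fold 64.5% of all tested genes passed the adjusted p in KC and 68.0% in phod2. SIP1-1 was lower in P- in both, at -0.44 ± 0.08 in KC and -0.38 ± 0.08 in phod2, and SIP2-1 higher, at 0.41 ± 0.09 and 0.56 ± 0.09. SIP1-2 is described with the genes whose change differed between genotypes.

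Transcripts of the circadian clock differed strongly between the conditions, and the labels give no time of harvest. Of 10 clock genes, 5 were called higher and 4 lower in P- in KC, and 5 higher and 4 lower in phod2. CCA1, a dawn-phased clock regulator, averaged 0.120 ± 0.10 in KC P+ and 58.5 ± 1.58 in KC P-, and 0.0817 ± 0.058 and 53.0 ± 2.74 in phod2. TOC1, an evening-phased regulator, averaged 72.8 ± 2.23 in KC P+ and 9.0 ± 0.43 in KC P-, and 76.8 ± 2.17 and 8.28 ± 0.95 in phod2. Aquaporin transcripts are known to cycle over the day, so condition and time of day cannot be told apart in the P- against P+ values above. Some clock genes also differed between genotypes within a condition. In P+, 1 of 10 was called lower in phod2 (GI, 2.87 in KC and 1.43 in phod2) and 5 of 10 were lower at any fold. In P-, 2 of 10 were called lower, ELF4 at 6.15 in KC and 2.13 in phod2 and PRR5 at 0.773 and 0.307, and 0 of 10 were called higher in either condition. Their part in the phod2 against KC values that follow was not tested.

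The comparison of phod2 with KC asks how the genotypes differ at each condition. In P+, 2 aquaporins were called higher and 5 lower in phod2, where 1.98% and 5.42% of all tested genes were (7.40% in all). In P-, 2 were called higher and 2 lower, where 2.23% and 2.46% of all tested genes were (4.69% in all). The genes called higher, TIP3-1 and TIP3-2, passed the count filter only through phod2 P- or both phod2 groups, and without these and NIP7-1 0 of 27 members were called higher in either condition in edgeR. At any fold 1 of those 27 was higher in P+ and 4 in P-. The median log2 difference of the 30 members was -0.251 in P+ and -0.068 in P- (-0.304 and -0.0783 over the 27), beside 0.036 and 0.00301 over all tested genes. Without the fold limit, 3 members were higher and 13 lower in P+, where 12.5% and 15.6% of all tested genes were (28.1% in all), and 6 were higher and 9 lower in P-, where 11.0% and 11.6% were (22.6% in all). The calls in both conditions were TIP3-1 and TIP3-2, higher in phod2, and PIP2-4 and TIP4-1, lower in phod2.

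**Figure D4:**
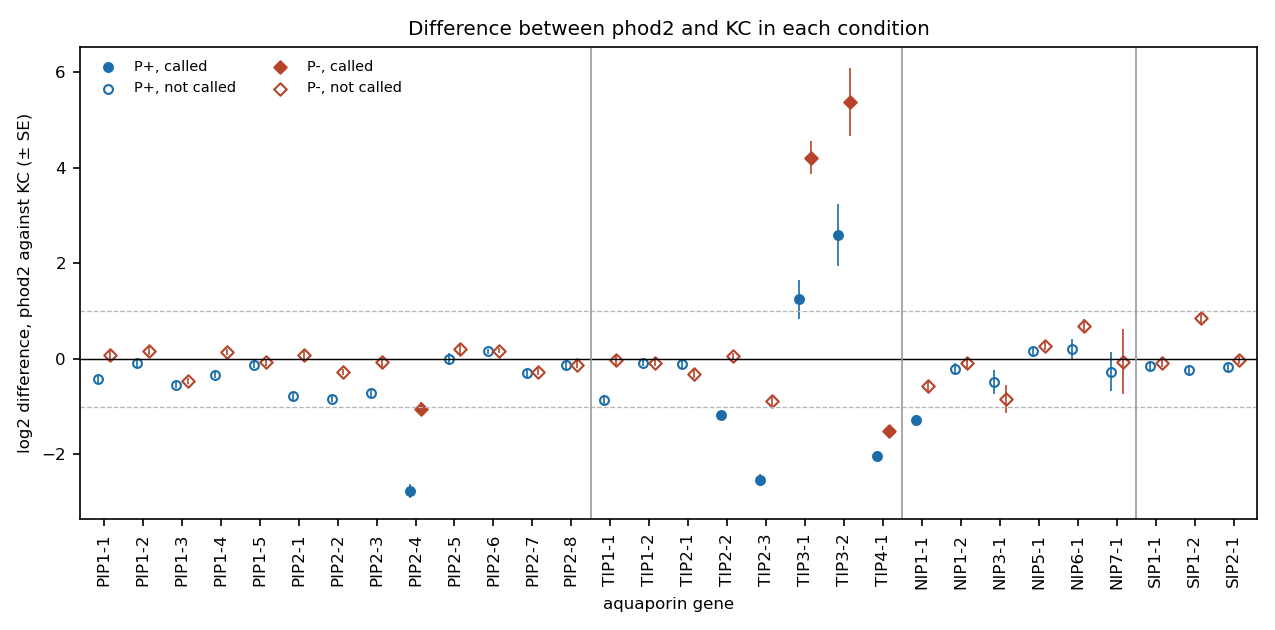
Log2 difference of phod2 against KC for each tested aquaporin in P+ and in P-, with bars of 1 SE from edgeR and lines at a 2-fold difference. PIP2-4, TIP2-3, TIP4-1, NIP1-1 and TIP2-2 lie to the lower side in P+, and TIP3-1 and TIP3-2 to the higher side in both conditions.

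The 5 genes lower in phod2 in P+ were PIP2-4, TIP2-2, TIP2-3, TIP4-1 and NIP1-1. TIP4-1 (AT2G25810, chr2:11012499-11014171, plus strand), a water and glycerol channel known from roots, had levels of 16.0, 15.5 and 16.8 in KC P+ and 3.77, 4.19 and 3.78 in phod2 P+, and of 22.3, 22.1 and 23.1 in KC P- and 6.87, 9.26 and 7.69 in phod2 P-. The phod2 libraries lay below all KC libraries in both conditions, by a log2 difference of -2.04 ± 0.10 (adjusted p = 4.22e-09) in P+ and -1.51 ± 0.10 (adjusted p = 7.09e-08) in P-. Within phod2 it was higher in P-, at 1.01 ± 0.11 (adjusted p = 2.24e-06), a value at the fold limit that was 0.93 without phod2 P- replicate 2. NIP1-1 (AT4G19030, chr4:10421521-10423508, minus strand), a channel known to admit arsenite, had levels of 18.6, 18.3 and 14.7 in KC P+ and 5.95, 8.29 and 6.88 in phod2 P+, and of 11.8, 12.7 and 12.3 in KC P- and 8.46, 8.69 and 7.57 in phod2 P-. The phod2 libraries were lower, by -1.29 ± 0.12 on the log2 scale (adjusted p = 1.56e-06) in P+ and -0.57 ± 0.12 in P-, where it missed the fold limit. PIP2-4, TIP2-2 and TIP2-3 are given with the genes whose condition change differed. Just short of the fold limit in P+ were TIP1-1, at -0.85 ± 0.10 (adjusted p = 1.19e-05), PIP2-2, at -0.84 ± 0.06 (adjusted p = 2.27e-07), and PIP2-1, at -0.78 ± 0.08 (adjusted p = 5.18e-06).

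Several of these genes are known mainly from roots, and some markers of root cell types, not all, were lower in phod2. Of 10 root markers, 0 were called higher and 4 lower in phod2 in P+ (CASP1, EXPA7, COBL9 and PIN2), and 0 higher and 2 lower in P- (EXPA7 and COBL9). Over all tested genes 1.98% were called higher and 5.42% lower in P+, and 2.23% and 2.46% in P-. The summed level of the list ran from 97.9 to 106 in KC P+, 97.1 to 102 in KC P-, 65.4 to 71.6 in phod2 P+ and 67.6 to 73.7 in phod2 P-, and none of the 10 was at 0 in any group. Without CASP1, which averaged 35.4 in KC P+ and 8.84 in phod2 P+, the sum ran from 65.5 to 68.8 in KC P+, 81.7 to 85.3 in KC P-, 57.1 to 62.0 in phod2 P+ and 59.3 to 66.0 in phod2 P-. At any fold 6 markers were lower and 1 higher in P+, where 15.6% and 12.5% of all tested genes were. In P- 6 markers were lower and 0 higher, where 11.6% and 11.0% of all tested genes were. The marker higher in P+ was the root cortex gene CO2, at 8.81 in KC and 16.1 in phod2, a log2 difference of 0.87 ± 0.10 (adjusted p = 1.54e-05). The radial patterning genes SCR and SHR did not pass in P+, at 0.13 ± 0.09 and 0.09 ± 0.07. The endodermal gene CASP1 differed by -2.0 ± 0.09 (adjusted p = 7.64e-10) in P+, and the root hair genes COBL9 and EXPA7 by -1.97 ± 0.15 (adjusted p = 2.64e-07) and -1.89 ± 0.14 (adjusted p = 2.31e-07). Of 4 shoot markers 0 were called between genotypes in either condition, at sums of 13400 to 13491 in KC P+ and 13724 to 13894 in phod2 P+. The sums in P- were 19256 to 19704 in KC and 18414 to 25037 in phod2. RBCS1A made up most of them, averaging 12008 in KC P+ and 12256 in phod2 P+. At any fold 1 shoot marker was higher and 1 lower in phod2 in P+, and 0 passed in P-. The part of the root markers in the aquaporin values was not tested, and in whole seedlings fewer cells of a type and less RNA per cell cannot be told apart.

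TIP3-1 and TIP3-2, the alpha- and beta-TIP of seed storage vacuoles, were nearly silent in KC and detected in phod2. TIP3-1 (AT1G73190, chr1:27521944-27523332, plus strand) had levels of 0.541, 0.231 and 0.296 in KC P+ and 0.135, 0.376 and 0.305 in KC P-, and of 0.972, 0.620 and 1.03 in phod2 P+ and 4.50, 6.67 and 4.14 in phod2 P-. The groups rest on 28, 17, 64 and 330 counts, with all 6 phod2 libraries but only 1 KC library at the filter's level, and no phod2 library overlapped the KC libraries of its condition. TIP3-1 passed the filter through phod2, where it is high. A higher value in phod2 was thus built into its being tested, and its genotype values are a description. In P- it was 18.5-fold higher in phod2, a log2 difference of 4.21 ± 0.35 (adjusted p = 8.94e-07). In P+ its log2 difference was 1.25 ± 0.40 (adjusted p = 0.0333), a call lost without KC P+ replicate 2 or 3 or phod2 P+ replicate 1 or 3 (adjusted p = 0.0911 to 0.116).

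TIP3-2 (AT1G17810, chr1:6130025-6131627, plus strand) was rarer still, with 4, 1, 25 and 57 counts in KC P+, KC P-, phod2 P+ and phod2 P-. Its levels were 0.0725, 0.0465 and 0.0372 in KC P+, 0, 0.0472 and 0 in KC P-, 0.266, 0.415 and 0.344 in phod2 P+ and 0.773, 1.33 and 0.574 in phod2 P-. It passed the count filter only through the 3 libraries of phod2 P-, the group where it is high, so a difference from that group was built into its being tested, and the values here are a description. Every phod2 library lay above every KC library. In P- the ratio of phod2 to KC was 54.6, with a 95% counting interval of 9.42 to 2200 from 57 against 1 counts. The fitted log2 difference in P+ was 2.59 ± 0.65 (adjusted p = 0.00799), and within phod2 P- against P+ gave 1.34 ± 0.38 (adjusted p = 0.00599).

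Some markers of seeds lay higher in phod2 beside the TIP3 genes. Of 11 seed markers, 6 passed the count filter, and 6 were called higher and 0 lower in phod2 in P-, and 2 (CRA1 and ABI3) were called higher and 0 lower in P+. Counts in KC P+, KC P-, phod2 P+ and phod2 P- were 14, 1, 38 and 103 for CRU3, 5, 15, 10 and 50 for EM1, and 8, 11, 42 and 44 for ABI3. OLEO1 had 32, 23, 27 and 184 counts in the same order. All of these genes, OLEO1 included, had too few counts in KC to pass the filter without phod2. A higher value in phod2 was thus built into their being tested, and their calls are a description. The summed level of the list ran from 2.32 to 2.80 in KC P+, 2.05 to 2.46 in KC P-, 5.39 to 5.80 in phod2 P+ and 29.3 to 34.1 in phod2 P-. The storage protein gene CRA1 averaged 0.903, 0.341, 3.31 and 18.8 in those groups and made up most of the phod2 sums. Without CRA1 the sum ran from 1.56 to 1.85 in KC P+, 1.73 to 2.17 in KC P-, 2.06 to 2.51 in phod2 P+ and 11.2 to 14.3 in phod2 P-. In P+ OLEO1 averaged 0.556 in KC and 0.466 in phod2, and EM6 averaged 0.631 and 0.624, and in P- OLEO1 averaged 0.475 and 3.67 and EM6 averaged 1.03 and 6.10. SESA1 and SESA3 were at 0 in phod2 P-, SESA1 and CRU2 in phod2 P+, SESA2 and SESA3 in KC P+, and SESA1, SESA2, SESA3 and CRU2 in KC P-. The part of the seed markers in the TIP3 values was not tested.

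The interaction tests whether the change between conditions differed between genotypes, as the log2 change of P- against P+ in phod2 minus that in KC. For 5 aquaporins this difference was called positive (4 of 27 without TIP3-1, TIP3-2 and NIP7-1) and for 0 negative, where 2.39% and 0.685% of all tested genes were (3.08% in all). Without the fold limit 13 were positive and 0 negative in edgeR, where 7.30% and 4.67% of all tested genes were, with 0 negative also at an unadjusted p under 0.05 and 0 negative calls in DESeq2. The median over the 30 members was 0.368, or 0.257 over the 27, beside -0.00325 over all tested genes. The called genes were PIP2-4, TIP2-2, TIP2-3, TIP3-1 and SIP1-2, and the next by size with a pass at any fold were PIP2-1, at 0.87 ± 0.11 (adjusted p = 0.000205), and TIP1-1, at 0.83 ± 0.14 (adjusted p = 0.00111).

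PIP2-4 (AT5G60660, chr5:24375368-24377206, minus strand), a PIP known mainly from roots and able to pass hydrogen peroxide, had levels of 14.1, 14.3 and 13.3 in KC P+ and 7.29, 6.58 and 5.83 in KC P-. In phod2 its levels were 1.94, 2.32 and 1.86 in P+ and 2.66, 4.01 and 2.94 in P-. It was lower in P- in KC, at -1.08 ± 0.12 (adjusted p = 2.39e-06), and higher in phod2, at 0.63 ± 0.17 (adjusted p = 0.00377), and the interaction was 1.71 ± 0.20 (adjusted p = 9.09e-05). Between genotypes it was 6.81-fold lower in phod2 in P+, at -2.77 ± 0.14 on the log2 scale (adjusted p = 3.38e-09). In P- the difference was -1.06 ± 0.14 (adjusted p = 9.96e-05), a value near the fold limit that was -0.97 without KC P- replicate 1 and -0.93 without phod2 P- replicate 1.

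TIP2-2 (AT4G17340, chr4:9698940-9700472, plus strand) and TIP2-3 (AT5G47450, chr5:19248249-19249622, minus strand), related tonoplast channels with 81.5% coding identity, were both lowest in phod2 P+. TIP2-2 had levels of 118, 122 and 130.4 in KC P+ and 142, 133 and 141 in KC P-, and of 57.8, 56.6 and 50.9 in phod2 P+ and 137, 159.6 and 134 in phod2 P-. Its phod2 P+ libraries stood below all the others, and the other groups lay close together. It was lower in phod2 in P+, at -1.17 ± 0.08 (adjusted p = 5.93e-08), and higher in P- within phod2, at 1.38 ± 0.08 (adjusted p = 1.29e-09), with an interaction of 1.22 ± 0.11 (adjusted p = 6.7e-06). TIP2-3, known to pass ammonia, had levels of 13.7, 12.9 and 13.0 in KC P+ and 15.3, 14.5 and 16.0 in KC P-, and of 2.14, 2.75 and 1.95 in phod2 P+ and 7.44, 9.40 and 8.01 in phod2 P-. Its phod2 P- libraries also stayed below the KC libraries. The difference in P+ was -2.53 ± 0.12 (adjusted p = 2.91e-09), that in P- was -0.89 ± 0.11 (adjusted p = 3.05e-05), and the change within phod2 was 1.85 ± 0.13 (adjusted p = 1.85e-08), with an interaction of 1.65 ± 0.17 (adjusted p = 2.2e-05).

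The interaction of TIP3-1 was 2.96 ± 0.61 (adjusted p = 0.00561), from a change of 2.53 ± 0.27 (adjusted p = 1.31e-06) within phod2. Its KC side rests on 28 counts in P+ and 17 in P-. TIP3-1 was tested through phod2, so its interaction is a description. SIP1-2 (AT5G18290, chr5:6055028-6058368, minus strand), whose first box is NPC as printed above, had levels of 6.37, 7.12 and 5.86 in KC P+ and 4.92, 4.06 and 4.21 in KC P-, and of 5.59, 5.38 and 5.46 in phod2 P+ and 8.22, 8.20 and 7.45 in phod2 P-. It was lower in P- in KC and higher in P- in phod2, with non-overlapping groups, at -0.54 ± 0.11 (adjusted p = 0.000564) and 0.54 ± 0.10 (adjusted p = 0.000352). Neither change reached 2-fold, and the interaction was 1.08 ± 0.15 (adjusted p = 0.000318), or 0.99 once a trend with exonic length was removed. Among the marker lists, 1 root marker (CASP1, 1.04 ± 0.13, adjusted p = 0.000124) and 4 seed markers were also called positive in the interaction. The limit given above for seed markers that passed the filter through phod2 applies to this count too.

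**Figure D5:**
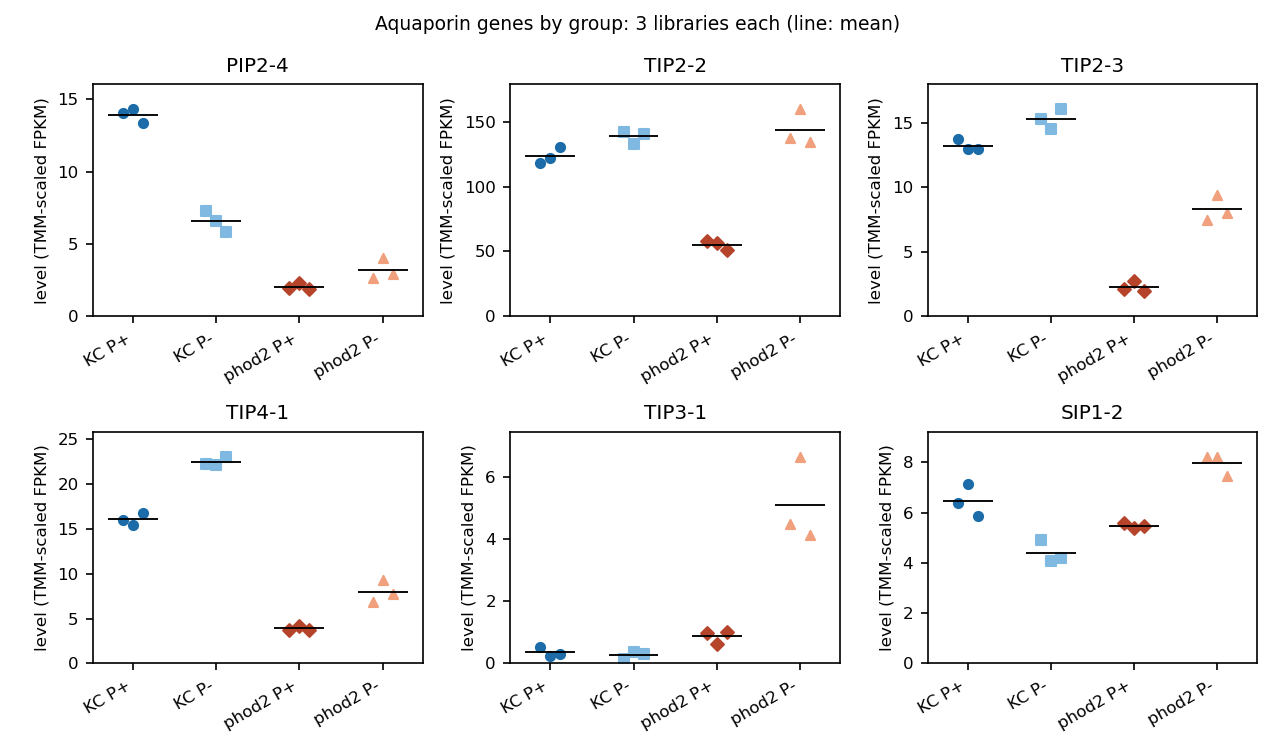
Level of PIP2-4, TIP2-2, TIP2-3, TIP4-1, TIP3-1 and SIP1-2 in each library by group, with a line at each group mean. PIP2-4 and SIP1-2 fall in KC and rise in phod2, and TIP2-2 and TIP2-3 are lowest in phod2 P+.

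The promoters of PIP2-4 and TIP2-2 are shown because both genes had a called interaction and both windows hold a match to P1BS, the motif bound by the phosphate starvation regulator PHR1. Each window runs from 250 bases before to 50 after the annotated gene start in TAIR10.1, 5′ to 3′ on the gene's strand, with the match to GNATATNC in capitals.
PIP2-4, chr5:24377157-24377456, minus strand: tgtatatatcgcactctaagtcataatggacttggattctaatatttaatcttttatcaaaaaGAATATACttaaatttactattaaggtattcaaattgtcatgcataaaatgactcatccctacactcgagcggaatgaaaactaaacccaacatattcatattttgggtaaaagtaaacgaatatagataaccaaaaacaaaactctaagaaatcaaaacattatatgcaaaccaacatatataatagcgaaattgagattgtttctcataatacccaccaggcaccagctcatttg
TIP2-2, chr4:9698690-9698989, plus strand: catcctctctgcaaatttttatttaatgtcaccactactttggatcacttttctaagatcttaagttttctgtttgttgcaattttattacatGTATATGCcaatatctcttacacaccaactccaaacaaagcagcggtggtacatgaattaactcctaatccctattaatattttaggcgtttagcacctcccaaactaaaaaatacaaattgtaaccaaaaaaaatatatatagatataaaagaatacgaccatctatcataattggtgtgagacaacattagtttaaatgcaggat
The matches lie at bases -187 to -180 and -157 to -150 from the gene start. Over the family, 3 of 35 windows (8.57%) held the motif on either strand, the other being PIP2-6 at bases 9 to 16, against 1716 of 27443 windows of all genes (6.25%). The evening element AAAATATCT, searched on both strands, was in 0 of 35 aquaporin windows and in 773 of 27443 of all windows (2.82%). A match is a description of the letters and not of binding.

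Genes that work beside aquaporins were read from lists. Of 8 genes that act on PIPs at the plasma membrane or in trafficking, 1 was called higher and 1 lower in P- in each genotype. Over all tested genes 10.9% were called higher and 9.60% lower in KC, and 14.1% and 10.3% in phod2. At any fold 1 of the 8 was higher and 6 lower in KC, where 32.2% and 32.3% of all tested genes were. In phod2 2 were higher and 3 lower, where 34.4% and 33.6% were. TSPO, a membrane protein known to bind PIP2-7 and lead it to degradation, averaged 0.507 in P+ and 4.52 in P- in KC, and 1.52 and 10.3 in phod2. Its log2 change in P- was 3.15 ± 0.23 (adjusted p = 2.56e-08) in KC and 2.75 ± 0.17 (adjusted p = 3.66e-09) in phod2, and it was higher in phod2 in P+ by 1.59 ± 0.27 (adjusted p = 0.000519) and in P- by 1.18 ± 0.15 (adjusted p = 4.4e-05). RMA1, a ubiquitin ligase known to act on PIP2-1, averaged 15.0 in P+ and 2.42 in P- in KC, and 11.7 and 1.94 in phod2, with log2 changes of -2.64 ± 0.09 (adjusted p = 6.76e-12) and -2.60 ± 0.09 (adjusted p = 1.03e-11). The part of these genes in the aquaporin values was not tested.

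The list of 7 boron exporters, which act with NIP5-1 and NIP6-1 in boron transport, held 1 gene called higher in P- in KC and 2 in phod2, with 0 lower. Of all tested genes, 10.9% and 14.1% were called higher. At any fold, 2 exporters were higher and 2 lower in KC, and 3 higher and 3 lower in phod2. In KC P+ and P-, BOR1 averaged 20.9 and 13.2, BOR3 11.7 and 7.62, and BOR2 13.5 and 24.6. The rarer BOR4 averaged 1.04 and 2.48. The list's summed level averaged 48.8 in KC P+ and 49.7 in KC P-. BOR4, known for boron efflux, changed by 1.26 ± 0.14 (adjusted p = 1.84e-06) in KC and 2.62 ± 0.17 (adjusted p = 8.22e-09) in phod2, with an interaction of 1.36 ± 0.23 (adjusted p = 0.00144). BOR5 changed by 2.12 ± 0.21 (adjusted p = 5.74e-07) in phod2, with an interaction of 2.04 ± 0.30 (adjusted p = 0.000446). Between genotypes in P+, 1 was called higher (BOR7, 1.23 ± 0.21, adjusted p = 0.000561) and 1 lower (BOR4, -1.73 ± 0.19, adjusted p = 8.5e-06), and in P- 1 was called higher (BOR5, 1.10 ± 0.19, adjusted p = 0.000844).

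Proton pumps energise the 2 membranes in which PIPs and TIPs sit. Of 11 plasma membrane pumps, 9 were tested. AHA7 was called higher in P- in KC (1.35 ± 0.11, adjusted p = 1.04e-07) and AHA5 lower in KC (-1.29 ± 0.09, adjusted p = 2.78e-08) and phod2 (-1.33 ± 0.09, adjusted p = 1.46e-08), and AHA7 was lower in phod2 than in KC in P- (-1.15 ± 0.11, adjusted p = 4.68e-06). At any fold 2 of the 9 were higher and 5 lower in P- in KC, and 1 higher and 5 lower in phod2. Of 5 vacuolar pump genes, AVP1, the vacuolar pyrophosphatase, was called lower in P- in phod2 (-1.04 ± 0.05, adjusted p = 6.94e-10) and averaged 379 in P+ and 243 in P- in KC, and 443 and 216 in phod2. At any fold 4 of these 5 genes were lower and 0 higher in P- in each genotype. Over all tested genes 32.2% were higher and 32.3% lower at any fold in KC, and 34.4% and 33.6% in phod2.

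Of the 30 tested aquaporins, 12 (40%) were called in none of the 5 comparisons, against 68.3% of all tested genes, and they include PIP1-2, PIP1-3 and PIP1-4 at the edge of the fold limit. The 18 called members include NIP7-1, TIP3-1 and TIP3-2, which passed the count filter only through the groups where they are high. Without these 3 the uncalled members were 12 of 27. PIP2-6, known from leaf veins, ran from 95.2 to 99.3 in KC P- and from 135 to 138 in KC P+, and changed by -0.50 ± 0.05 in KC and -0.48 ± 0.05 in phod2. PIP2-8 changed by 0.22 ± 0.08 and 0.23 ± 0.08. NIP1-2 ran from 7.14 to 10.7 over all libraries, and NIP3-1 from 0.429 to 1.63. The 5 genes left out by the count filter were TIP1-3 with 24 counts over the 12 libraries, TIP5-1 with 3, NIP2-1 with 70, NIP4-1 with 0 and NIP4-2 with 42. A count of 0 in a library allows up to 3 counts, so these genes were not detectable or near the limit at this depth. TIP1-3, TIP5-1, NIP4-1 and NIP4-2 are known mainly from pollen, and the pollen markers VGD1 and VGDH1 had 0 counts in both P+ groups and summed levels of 0.540 to 0.848 in KC P- and 0.635 to 1.22 in phod2 P-.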

How the data were processed

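The deposited table holds raw counts and FPKM of 12 libraries, per the file headers. The tests used the deposited counts. The deposited FPKM equal the counts scaled by exonic length and library total, within 0.006 for 100% of values, and served the limma alternatives. The sources used here name no aligner, counter, strand setting or annotation. The submitters' processing notes name the genome build mm10, a mouse build, whereas the identifiers and coordinates are those of Arabidopsis. Per the labels' protocols, libraries were made from total RNA of seedlings. No pair of columns held identical values.

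In R 4.3.3, genes were kept by edgeR 4.0.16 filterByExpr (minimum count 10), scaled by TMM, and tested by quasi-likelihood over 4 group means fitted to all libraries, with Benjamini-Hochberg adjustment over 20891 genes. A gene was called at adjusted p of at most 0.05 and 2-fold, the limits of the series' design text. The SE is the log2 change divided by the square root of F. The fit's common biological variation was 8.47%. Levels are FPKM recomputed with TMM-scaled library sizes, used also for the sums. The fit was tested on simulated data. Counting intervals and the floor of 3 counts cover counting error only.

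All 35 members are accounted for. Full values per library are given for members called in any comparison or among the 5 highest by mean level, and other members are given by range. For other lists (9 lists, 68 genes) counts are given, with values for chosen genes, both called and uncalled. The members and lists were chosen with earlier results of these data known. Sequences came from the RefSeq TAIR10.1 genome, read with Python 3.11.15 and Biopython 1.88, and figures were drawn with matplotlib 3.10.9. Alternatives were RLE size factors, DESeq2 1.42.0, no filter, limma 3.58.1 on log2(FPKM + 1) and log2(FPKM + 0.1), removal of a length trend, a replicate block, a fit of the compared groups only, and leaving out each library.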

Additional observations from a re-analysis of the deposited data

Results flagged for a closer look

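For 5 genes the change from P+ to P- differed between the genotypes by the interaction term of edgeR's quasi-likelihood test, adjusted over all tested genes. The difference between the log2 changes, phod2 minus KC, was 1.71 for PIP2-4, which was lower in P- in KC and higher in phod2. It was 1.22 for TIP2-2 and 1.65 for TIP2-3, both lowest in phod2 P+. It was 2.96 for TIP3-1, highest in phod2 P- and at the count filter's level in 1 of the 6 KC libraries, and 1.08 for SIP1-2, which moved in opposite directions in the genotypes without reaching 2-fold in either. No reason for these differences was tested.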

How the results depend on the processing

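Of 1864 values of single members under the alternatives, 1816 kept their direction and their side of the call limits, 34 lost a call, 14 gained one and 0 reversed. The number called lower in P- against P+ in phod2 was 5 and ranged from 3 to 5 when single libraries were left out. It was 3 without phod2 P+ replicate 2, phod2 P+ replicate 3 or phod2 P- replicate 3, which removed both PIP2-7 and NIP7-1. The number called higher in phod2 against KC in P+ was 2, fell to 0 with limma on log2(FPKM + 1) and to 1 when only the compared groups were fitted, and ranged from 1 to 2 without single libraries. In P- limma on log2(FPKM + 1) gave 1 in place of 2 called higher and 1 in place of 2 called lower, and leaving out single libraries gave 1 to 3 called lower. The pseudocount of 1 by its construction lowers the change of genes as rare as the TIP3 pair. The other counts stayed within 1.5 times of the main value under every alternative run. Same-numbered libraries share only a number: none of 18 pairs had deviations that correlated above 0.1 (range -0.0627 to 0.0619), and a library correlated best with its own number in 14 of 36 comparisons with another group. The fit with the replicate block gave 4 and 6 calls (higher and lower in P- in KC), 10 and 5 (in phod2), 2 and 5 (genotypes in P+), 2 and 2 (genotypes in P-) and 5 and 0 (interaction), equal to the fit without it.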
